A study of Amphimedon queenslandica with 124 samples.

Results

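The chamber to juvenile peak genes of the demosponge Amphimedon queenslandica are 120 of 36868 gene models whose mean level was higher at chamber-formation, tent-pole-formation and juvenile, averaged, than at any of the other 11 stages of a developmental series. Sponge larvae settle, lose their larval form and flatten into a mat of cells. Within it the body of the adult is then built: collar cells gather into chambers that drive water through the animal, canals link the chambers, and an outflow opening lets a young sponge begin to filter-feed. The set holds transcripts whose level, averaged over the stages of this building phase, was above that at any earlier stage and in adults. Not every member was highest at each of these stages. The gene models carry identifiers only, none of which was paired with a gene name or function here, so the members are described by their identifiers and levels.

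The series holds 124 single individuals, each collected separately, staged by its morphology and sequenced by CEL-seq, which tags polyadenylated RNA near its 3' end. They were collected at Heron Island, with no treatment and no genetic change stated in the labels. The stages run from cleavage through brown, cloud, spot, late spot, then ring and late ring (7 individuals each), and free-swimming larvae (13) to settlement (10, spelled settelment in the labels), mat-formation (34), chamber-formation (3), tent-pole-formation (6), juvenile (5) and adult (3). One individual has no stage. Neither the age of the individuals nor how much of an adult was taken is given in the labels, which call every sample a single embryo.

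Levels are CPM, the count of a gene model divided by the total of its library and scaled to a common total. Libraries held 1158 to 3059409 counts. The members were chosen from 86 libraries: 62 embryos and larvae with embryo numbers 1 to 100, and 24 individuals numbered 101 to 124 from settlement to adult. The peak stages are represented by 9 of the 24, 3 per stage, and the 24 held 548828 to 2195894 counts. The 37 libraries of numbers 1 to 100 from settlement onwards were not used in the choice and are much shallower, from 1158 to 300386 counts. All embryos and larvae are numbered 1 to 100 and all individuals of the peak stages in the choice 101 to 124, so that stage and number set cannot be told apart between them. In whole individuals, fewer cells of a type and less RNA per cell cannot be told apart either.

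A margin chose the members: the average of the 3 peak-stage means of log2(CPM + 1) minus the highest mean among the other 11 stages. It was above 0 for 2877 gene models, and the 120 largest were kept. Their margins ran from 0.99 to 4.20, with a median of 1.36 and quartiles of 1.17 and 1.70. At the border, Aqu2.1.36155_001 entered at rank 120 with a margin of 0.9941. It had 8.62, 7.29 and 5.47 CPM in chamber-formation replicates 1 to 3, 0.843, 3.69 and 0.623 CPM in tent-pole-formation replicates 4 to 6, 3.67, 1.77 and 4.24 CPM in juvenile replicates 3 to 5, and 1.09, 3.77 and 0 CPM in adult replicates 1 to 3. Aqu2.1.13951_001 fell just outside at rank 121 with 0.9916, from means of log2(CPM + 1) of 2.69 at the peak stages and 1.69 in free-swimming larvae. These values chose the members and are given without a test.

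Most members were low in embryos and larvae, little higher at settlement and mat-formation, and high through all 3 peak stages. The median over members of the stage mean of log2(CPM + 1) lay between 0.35 and 0.63 from cleavage to free-swimming larvae. Settlement had 0.76, mat-formation 1.28, chamber-formation 3.83, tent-pole-formation 3.66, juveniles 4.35 and adults 2.34. For 102 members each of the 3 peak-stage means exceeded all other stage means. In 16 members 2 of the 3 did so, and in 2 members only 1 did. Juveniles were the highest peak stage for 72 members, tent-pole-formation for 26 and chamber-formation for 22.

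**Figure D1:**
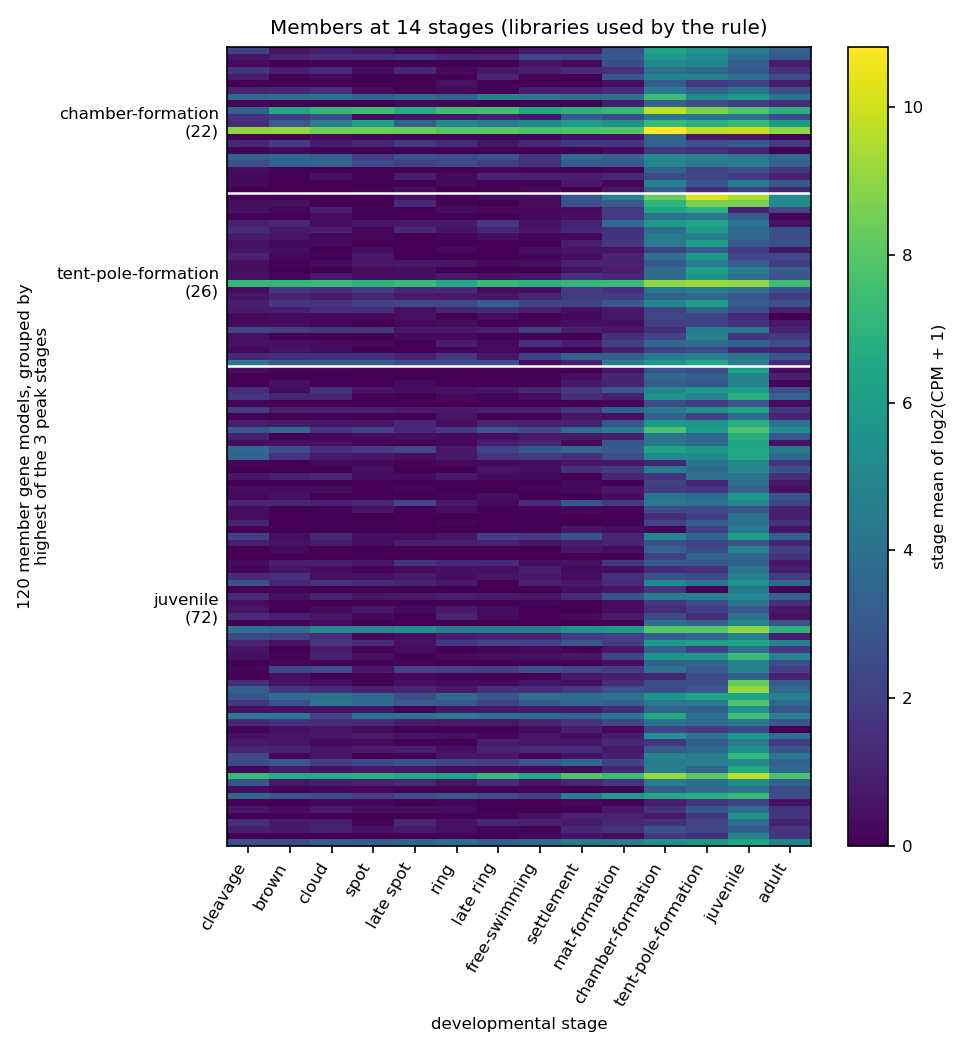
Stage means of log2(CPM + 1) for the 120 members (rows) at the 14 stages (columns), in the libraries that chose them. Rows are grouped by the highest of the 3 peak stages, 22 at chamber-formation, 26 at tent-pole-formation and 72 in juveniles, and within a group the margin falls from top to bottom. Colour rises at chamber-formation in nearly all rows and is lower again in adults.

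Members grouped by their highest peak stage were present at the other peak stages too. The 22 members highest at chamber-formation had a median stage mean of 4.57 there, 3.90 at tent-pole-formation and 3.95 in juveniles. The 26 members highest at tent-pole-formation had 3.93 at chamber-formation, 4.75 at tent-pole-formation and 3.33 in juveniles. The 72 members highest in juveniles had 3.34 at chamber-formation, 3.43 at tent-pole-formation and 4.99 in juveniles. At mat-formation the same groups stood at 2.09, 1.56 and 1.09, on the same scale. The mean level over the 9 libraries was similar between them, with medians of 21.2, 24.7 and 22.2 CPM.

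Few members were abundant. The mean over the 9 peak-stage libraries ran from 3.35 to 1871 CPM, with a median of 22.2 CPM and quartiles of 10.9 and 49.7 CPM. Of the 120, 26 were under 10 CPM and 15 reached 100 CPM. The 5 most abundant members held 52.1% of the summed level of all members in these libraries. A count was present in all 9 libraries for 89 members. In the 62 embryos and larvae a member had a count in a median of 17 libraries, from 0 to 62. Of the 120 members 33 had a count in at most 6 of those libraries, 3 of them in none, and 30 had one in at least 31. With 3 counts as the limit that a count of 0 allows, a member without a count could have reached 0.981 to 20.4 CPM in an embryo or larva and 1.37 to 5.47 CPM in a library numbered 101 to 124. These limits cover counting error only.

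Summed over the members, the share of a library differed more between the peak stages and all others than within the peak stages. The sum was 10554, 7663 and 8389 CPM in chamber-formation replicates 1 to 3. It was 14739, 8642 and 4911 CPM in tent-pole-formation replicates 4 to 6, and 13672, 11114 and 8362 CPM in juvenile replicates 3 to 5. The 9 individuals averaged 9783 ± 3073 CPM (SD, n = 9). Adults averaged 2554 ± 858 CPM (n = 3), a ratio of 3.83. The mean was 1632 ± 263 CPM at mat-formation (n = 9, a ratio of 5.99), 1182 ± 10.9 CPM at settlement (n = 3, a ratio of 8.28) and 1224 ± 583 CPM in embryos and larvae (n = 62, a ratio of 7.995). No library outside the peak stages reached the lowest peak-stage sum within the 86 libraries. This follows from the choice of members and is a description.

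Without the 5 most abundant members the juveniles stood above the other peak stages in the libraries that chose the members. The remaining 115 members summed to 3032 to 4069 CPM at chamber-formation, 3448 to 4384 CPM at tent-pole-formation and 5894 to 8072 CPM in juveniles. The juveniles did not overlap with either of the others there. In libraries that the choice did not use, the same sum was 2252 and 4916 CPM in juvenile replicates 1 and 2, against 2858, 2679 and 3755 CPM in tent-pole-formation replicates 1 to 3, so that the stages overlapped. In the libraries of the choice it was 866, 2571 and 889 CPM in adult replicates 1 to 3, so that adult replicate 2 stood well above the other adults.

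**Figure D2:**
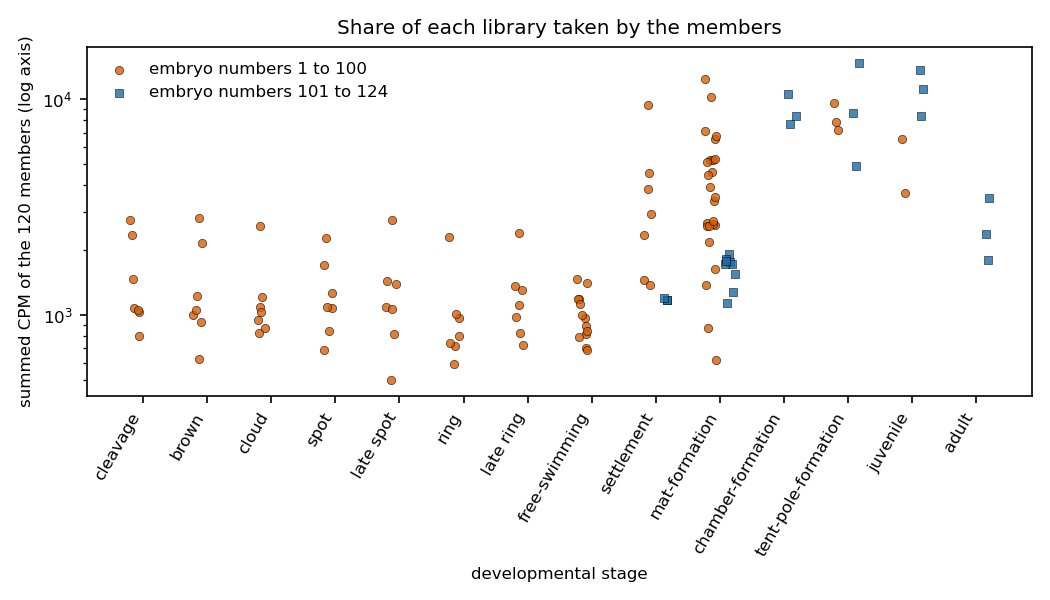
Summed CPM of the 120 members (log axis) in each labelled library, by stage, with circles for embryo numbers 1 to 100 and squares for 101 to 124. Among the squares the 9 individuals of the peak stages lie between 4911 and 14739 CPM and the adults between 1802 and 3489 CPM. Among the circles from settlement onwards the stages overlap.

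Adults were the nearest stage for most members. The highest of the other 11 stage means was the adult mean for 75 members, mat-formation for 21, settlement for 8 and cleavage for 5. The remaining 11 were nearest to another embryo or larval stage. Of the 120 members, 64 had a count in all 3 adults and 5 had none in any. The adults differed among themselves. The highest adult level was in replicate 2 for 56 members, in replicate 1 for 32 and in replicate 3 for 27. In adult replicate 2, 30 members were at or above their median over the 9 peak-stage libraries, against 7 in replicate 1 and 11 in replicate 3. The same held for 67.6% of the 24595 gene models with a count in the 9 libraries in adult replicate 2, 66.7% in replicate 1 and 70.7% in replicate 3. A gene model without a count in most of the 9 libraries meets this at any adult level, even without a count in the adult. Such ties can raise these shares and were not counted, so the shares do not show that most gene models were as high in adults. The choice used the adult values, and nothing is read from the difference between the members and these gene models. With adult replicate 2 left out of the choice, 83 of the 120 members were kept, and 83 and 88 were kept without adult replicates 3 and 1. With adults left out altogether 13 were kept, since gene models that stayed high in adults then took the other places.

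Groups of individuals overlapped in most members. In 16 members all 9 peak-stage libraries lay above all adults, against 1.81% of all 24595 gene models with a count in the 9 libraries. All 9 lay above all mat-formation libraries numbered 101 to 124 in 24 members (1.48% of all), above all settlement libraries of that set in 59 (6.57%) and above all embryos and larvae in 18 (0.899%). The choice used these contrasts, and nothing is read from the difference to all gene models.

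Aqu2.1.17154_001 had the largest margin and was the second most abundant member. It had 332, 1189.95 and 83.8 CPM in chamber-formation replicates 1 to 3, 4963, 2756 and 148 CPM in tent-pole-formation replicates 4 to 6, and 556, 1285 and 526.04 CPM in juvenile replicates 3 to 5. All 9 values were above the 24.8 to 49.2 CPM of adults, the 12.1 to 80.7 CPM at mat-formation and the 6.28 to 7.50 CPM at settlement (numbers 101 to 124). Within tent-pole-formation the highest and lowest individual differed far more than the means of the 3 peak stages did. Of the 62 embryos and larvae 7 had a count, and the highest level among them was 11.4 CPM.

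The next identifier, Aqu2.1.17155_001, is also a member and was chosen for mention after its values were seen. It had 202, 324 and 34.6 CPM in chamber-formation replicates 1 to 3, 1179.55, 731 and 74.7 CPM in tent-pole-formation replicates 4 to 6, and 280.2, 1192 and 174 CPM in juvenile replicates 3 to 5. The order of the 3 individuals within each stage was the same as for Aqu2.1.17154_001. Whether reads could be assigned to either of a pair of similar or overlapping gene models is not given in the sources used here, so levels of such neighbours are uncertain.

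Aqu2.1.01056_001 was the most abundant member and was present in every stage. It had 4771, 423 and 2889.8 CPM in chamber-formation replicates 1 to 3, 2501 CPM, 390.2 CPM and 616 CPM in tent-pole-formation replicates 4 to 6, and 4175, 283 and 792 CPM in juvenile replicates 3 to 5. Adults had 408 to 675 CPM, so that the groups overlapped. All 62 embryos and larvae had counts, from 68.8 to 1548 CPM with a median of 281 CPM. Each peak stage held both high and low individuals.

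Differences among the peak stages were tested on the counts of the 9 libraries with edgeR's quasi-likelihood test, adjusted by Benjamini-Hochberg over all 9115 gene models tested, of which 107 are members. The other 13 members did not pass the filter on low counts. Differences among the 3 stages were called for 9 members at an adjusted p under 0.05 (8.41% of those tested), against 2.24% of all gene models tested, and 45 of the 107 members had an unadjusted p under 0.05, against 1486 of the 9115 gene models. The margin averages the 3 stages, so that a gene very high in 1 of them could enter on that stage alone. A share of called members above that of all gene models can therefore be set in part by the choice. Each library is 1 individual, and the p-values reflect how individuals of the same stage varied.

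With edgeR on the 9 libraries, the calls between pairs of stages all involved juveniles. Against chamber-formation, juveniles were higher in 5 members and lower in 3, with 2.15% of all gene models called in either direction (1.67% higher and 0.483% lower). The median log2 fold change was 0.56 over the 107 members and -0.03 over all gene models, and 74 of the 107 were positive. Against tent-pole-formation, juveniles were higher in 8 members and lower in 2, with 1.82% of all gene models called (1.54% higher and 0.285% lower). The median log2 fold change was 0.71 over the members and -0.04 over all, and 71 of the 107 were positive. These comparisons share the juvenile libraries. They called 12 members in all, 6 of them in both. The overlap was not counted over all gene models, so nothing is read from it. The libraries are those that chose the members. In unused libraries the sum of all members was lower in juveniles (3666 and 6555 CPM) than in tent-pole-formation (7239 to 9593 CPM). Without the 5 most abundant members these sums overlapped, at 2252 and 4916 CPM against 2679 to 3755 CPM. The mean of log2(CPM + 1) over members overlapped too, at 1.60 and 1.40 against 1.065 to 1.79.

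Between tent-pole-formation and chamber-formation edgeR called 0 members and 0 of all gene models (0%). At an unadjusted p under 0.05 there were 12 members and 647 of all gene models. DESeq2 called 2 members and 0.147% of all gene models. The median log2 fold change was -0.01 over members and 0.01 over all gene models. With 3 individuals per stage, this does not show that these stages are alike.

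The counts depended on single individuals and on the test. For juvenile against chamber-formation 8 calls became 5 without chamber-formation replicate 1, juvenile replicate 3 or juvenile replicate 4, with 0.559%, 1.00% and 0.686% of all gene models called. They became 4 without chamber-formation replicate 3 (0.412% of all) and 14 without tent-pole-formation replicate 4 (3.18% of all). For juvenile against tent-pole-formation 10 calls became 6 without juvenile replicate 3 (0.674% of all) and 5 without juvenile replicate 4 (0.225%) or tent-pole-formation replicate 4 (0.488%). Without tent-pole-formation replicate 6 they became 4 (0.388%). Among the 3 stages 9 became 5 without chamber-formation replicate 1, juvenile replicate 3, juvenile replicate 4 or tent-pole-formation replicate 6, with 1.12%, 1.02%, 0.614% and 1.54% of all gene models called. The share of all gene models moved in the same direction as the members' count in each of these. DESeq2 called 21, 24 and 30 members in the same order of comparisons, against 4.69%, 5.08% and 5.43% of all gene models. In these libraries the members varied more between individuals of a stage than most gene models did. Their median biological coefficient of variation was 0.58 (quartiles 0.44 and 0.79, 107 members), against 0.40 (0.30 and 0.54) over all 9115. The same libraries chose the members, and gene models of like level were not compared. The difference can be set in part by the choice, and nothing is read from it.

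**Figure D3:**
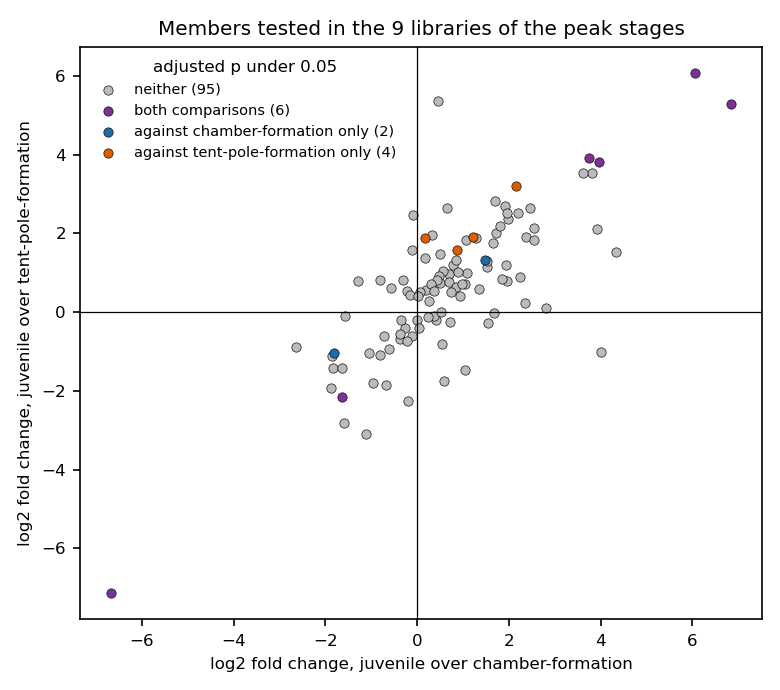
Log2 fold change of juvenile over chamber-formation (horizontal) and of juvenile over tent-pole-formation (vertical) for the 107 members tested, coloured by which comparison called them. The 95 grey points were called in neither, 6 in both, 2 against chamber-formation alone and 4 against tent-pole-formation alone. Both axes share the juvenile libraries, so points along the diagonal are no independent agreement.

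Among called members whose higher stage averaged 50 CPM or more, the largest rises in juveniles came from a pair of consecutive identifiers. Aqu2.1.35216_001 had 283, 500.3 and 197 CPM in juvenile replicates 3 to 5, against 6.46, 2.73 and 7.29 CPM in chamber-formation replicates 1 to 3 and 3.37, 7.39 and 4.36 CPM in tent-pole-formation replicates 4 to 6. Juveniles did not overlap with the other stages. Adults had 4.92, 2.83 and 31.3 CPM in replicates 1 to 3. The log2 fold change in juveniles was 6.05 (SE 0.51, edgeR adjusted p = 0.000551) against chamber-formation and 6.08 (SE 0.50, edgeR adjusted p = 0.00141) against tent-pole-formation. Both calls held in all alternatives run. In the unused libraries, described further on, it had 78.6 and 187 CPM in juvenile replicates 1 and 2, against 0, 0 and 74.4 CPM in tent-pole-formation replicates 1 to 3. Mat-formation there had 0 to 171 CPM (a count in 10 of 25) and settlement 0 to 115 CPM (a count in 5 of 7), so that juveniles overlapped with both.

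Aqu2.1.35217_001 had 356, 801 and 547 CPM in juvenile replicates 3 to 5, against 2.87, 6.38 and 5.47 CPM in chamber-formation replicates 1 to 3 and 21.9, 0 and 18.7 CPM in tent-pole-formation replicates 4 to 6. Juveniles again stood apart from both. The log2 fold change was 6.84 (SE 0.81, edgeR adjusted p = 0.00549) against chamber-formation and 5.30 (SE 0.72, edgeR adjusted p = 0.0137) against tent-pole-formation. The libraries that the choice did not use gave another picture. There juvenile replicates 1 and 2 had 0 and 187 CPM, tent-pole-formation replicates 1 to 3 had 186, 0 and 372 CPM, mat-formation had 0 to 576 CPM (median 125 CPM, n = 25) and settlement 0 to 172 CPM (median 91.7 CPM, n = 7). With these shallow tent-pole and juvenile libraries in the fit, the adjusted p became 0.0678 and 0.190. The same gene model had 1.55 to 16.1 CPM at mat-formation in the libraries numbered 101 to 124.

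Aqu2.1.02881_001, with the second largest margin, was also high in juveniles. It had 52.8, 117 and 62.2 CPM in juvenile replicates 3 to 5, against 2.87, 5.46 and 10.9 CPM in chamber-formation replicates 1 to 3 and 5.06, 3.69 and 6.23 CPM in tent-pole-formation replicates 4 to 6. The log2 fold change was 3.75 (SE 0.53, edgeR adjusted p = 0.00915) against chamber-formation and 3.91 (SE 0.52, edgeR adjusted p = 0.0137) against tent-pole-formation. It was close to absent elsewhere, with 1 count among the 3 adults and no count in 3 settlement libraries, where 3 counts would be 1.88 to 2.35 CPM. The 5 shallow tent-pole and juvenile libraries had no count, which allows up to 78.6 to 186 CPM in each. With those libraries in the fit the adjusted p against chamber-formation became 0.160.

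Aqu2.1.14546_001 was the called member with the largest fall in juveniles. It had 1.47, 0.591 and 0.707 CPM in juvenile replicates 3 to 5, against 190.3, 39.6 and 76.5 CPM in chamber-formation replicates 1 to 3 and 53.9, 189.6 and 185 CPM in tent-pole-formation replicates 4 to 6. Each juvenile value rests on 1 or 2 counts. Juveniles lay below both other peak stages. They overlapped with settlement (0 to 0.785 CPM), mat-formation (0 to 41.3 CPM) and adults in the same number set. The log2 fold change was -6.67 (SE 0.88, edgeR adjusted p = 0.00823) against chamber-formation and -7.13 (SE 0.88, edgeR adjusted p = 0.0137) against tent-pole-formation. Adult replicates 1 and 3 had no count and adult replicate 2 had 122 CPM. With all 24 libraries numbered 101 to 124 in the fit, the edgeR adjusted p became 0.0738 and 0.0666. In the unused libraries neither juvenile had a count, and 1 of 3 tent-pole individuals had one, at 63.8 CPM. A count of 0 there allows up to 78.6 to 186 CPM.

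Smaller falls in juveniles were less firm. Aqu2.1.29922_001 had 27.9, 22.5 and 12.0 CPM in juvenile replicates 3 to 5, against 87.6, 66.0 and 71.1 CPM in chamber-formation replicates 1 to 3, with no overlap and a log2 fold change of -1.80 (SE 0.36, edgeR adjusted p = 0.0321). Leaving out any chamber-formation or juvenile replicate, or tent-pole-formation replicate 6, ended that call, with adjusted p-values of 0.0513 to 0.130. Aqu2.1.23420_001 had 21.3, 12.4 and 21.2 CPM in juvenile replicates 3 to 5, against 72.5, 61.6 and 113 CPM in tent-pole-formation replicates 4 to 6 and 56.0, 63.8 and 56.5 CPM in chamber-formation replicates 1 to 3. Juveniles lay below both stages. The log2 fold change was -2.15 (SE 0.34, edgeR adjusted p = 0.0172) against tent-pole-formation and -1.64 (SE 0.34, edgeR adjusted p = 0.0388) against chamber-formation. The second call was lost without any 1 of the chamber-formation or juvenile replicates (adjusted p of 0.0892 to 0.148). The first was lost without juvenile replicates 4 or 5 or tent-pole-formation replicate 6 (adjusted p of 0.0579 to 0.0780), and both were lost with all 24 libraries numbered 101 to 124 in the fit. The unused juveniles were not lower. Juvenile replicates 1 and 2 had 52.4 and 328 CPM of Aqu2.1.29922_001, from 2 and 7 counts, against 0, 31.9 and 112 CPM in tent-pole-formation replicates 1 to 3. They had 105 and 0 CPM of Aqu2.1.23420_001, from 4 and 0 counts, against no count in the 3 tent-pole individuals. With these libraries in the fit, Aqu2.1.29922_001 had a log2 fold change of -1.04 against chamber-formation (edgeR adjusted p = 0.996), and Aqu2.1.23420_001 -1.24 against tent-pole-formation (edgeR adjusted p = 0.948).

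**Figure D4:**
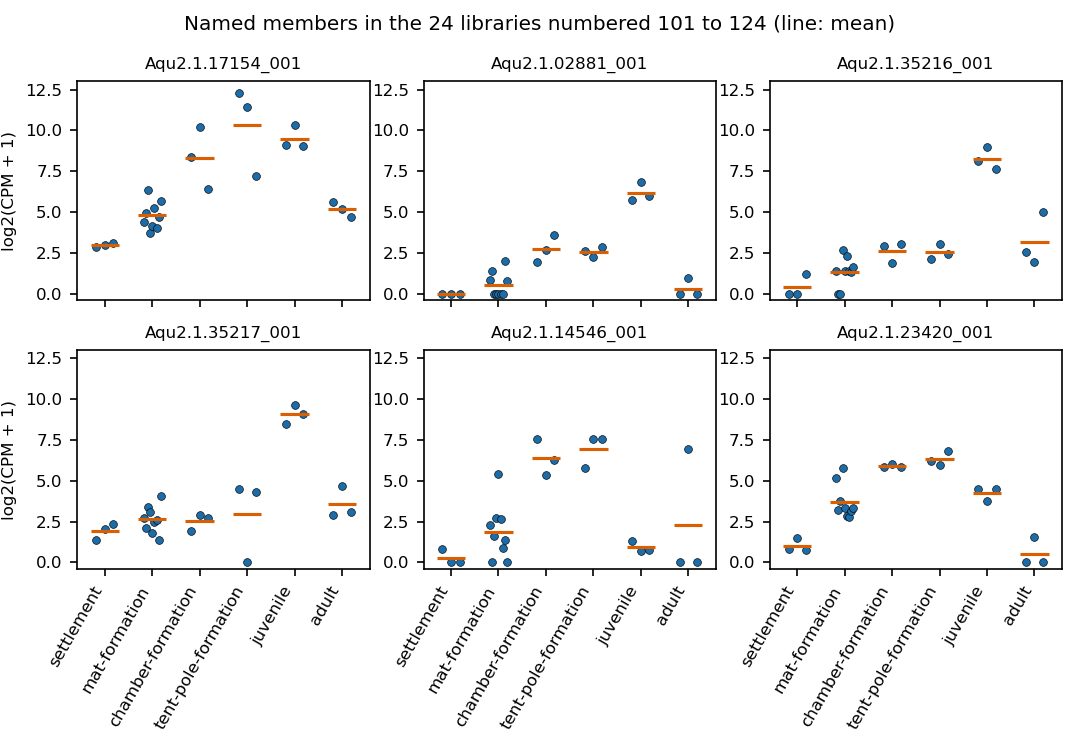
Levels of 6 members on the log2(CPM + 1) scale in the 24 libraries numbered 101 to 124, from settlement to adult; each point is 1 individual and the line is the stage mean. Aqu2.1.17154_001 is high in all 3 peak stages, Aqu2.1.02881_001, Aqu2.1.35216_001 and Aqu2.1.35217_001 stand out in juveniles, and Aqu2.1.14546_001 and Aqu2.1.23420_001 are lower in juveniles than in the 2 stages before.

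The 37 libraries that the choice did not use gave a check on other individuals. In these the members summed to 7828, 7239 and 9593 CPM in tent-pole-formation replicates 1 to 3 and to 3666 and 6555 CPM in juvenile replicates 1 and 2. All 5 lay above every embryo and larva, which are of the same number set and had 501 to 2817 CPM. The mean ratio was 5.70, and 9.45 without the 5 most abundant members. The embryos and larvae had taken part in the choice, and the shallow libraries held 16097 to 38188 counts, against 147197 or more in embryos and larvae. Chamber-formation is not represented among the unused libraries. Unused mat-formation and settlement libraries also had medians above 2817 CPM, at 3511 and 2931 CPM. The higher sum than in embryos and larvae was thus not particular to the peak stages there.

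Against mat-formation and settlement of the same number set the groups overlapped. The sum at mat-formation ran from 621 to 12466 CPM (median 3511 CPM, n = 25), with 13 libraries below the lowest of the 5 and 2 above the highest. At settlement it ran from 1375 to 9357 CPM (median 2931 CPM, n = 7), with 4 below and 0 above. In the libraries numbered 101 to 124 the highest mat-formation sum was 1922 CPM. Depth moved with these sums and its part was not tested. The 9 mat-formation libraries deeper than the 5 had a median of 2677 CPM and the 10 within their range of depth 4533 CPM, with 3 of those 10 below the lowest of the 5 and 1 above the highest. The libraries with the highest sums were mat-formation replicates 25 and 3, with 12466 and 10259 CPM, and settlement replicate 1 with 9357 CPM. In these the 5 most abundant members took 59.6%, 67.1% and 78.1% of the members' counts.

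**Figure D5:**
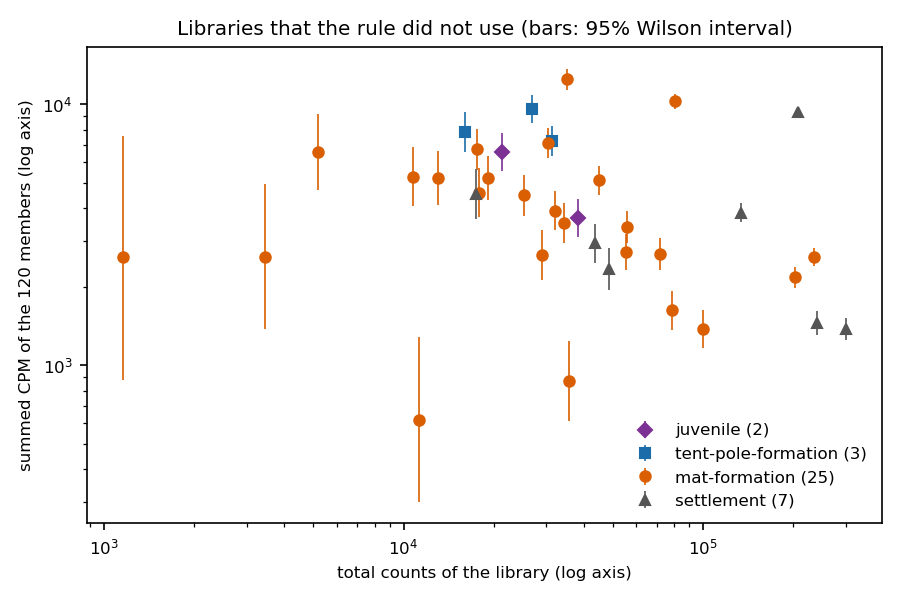
Summed CPM of the 120 members against total counts (both log axes) in the 37 libraries that did not take part in the choice, with 95% Wilson intervals that cover counting error only. The 5 tent-pole and juvenile libraries lie between 3666 and 9593 CPM, within the spread of the 25 mat-formation libraries, whose lowest depths give the widest intervals.

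Depth limited what single members could show there. Pooled, the 5 libraries held 133899 counts, so that 3 counts were worth 22.4 CPM, and 61 members averaged less than that in the deep peak-stage libraries. A count was present for 57 members. Of the 66 members with at least 10 counts pooled over these and mat-formation, 35 (53.0%) were higher in tent-pole and juvenile individuals, against 30.2% of 12141 gene models. Of 51 members against settlement, 35 (68.6%) were higher, against 38.5% of 9069 gene models. These pooled shares carry no test.

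Tested over individuals, 14 members passed the filter among 2468 gene models in the 37 libraries. Against mat-formation 1 member was higher in tent-pole and juvenile individuals and 0 were lower, with 0.162% of all gene models called, all of them higher. Against settlement 1 was higher and 0 lower (0.0405% of all called). Between mat-formation and settlement edgeR called 0 of the 14 members, with 1.62% of all gene models called (0.0405% higher and 1.58% lower). At an unadjusted edgeR p under 0.05 there were 1 member and 270 of all 2468 gene models. DESeq2 gave an adjusted p for 8 members and called 0 of them, with 19 of 1364 gene models called (6 higher and 13 lower). The median log2 fold change over all gene models was -1.03 against mat-formation and -1.26 against settlement, and -0.38 and -0.37 over the 14 members. The members' medians thus lay below 0 but above those of all gene models. Scaling moved them: with DESeq2's size factors the medians over all gene models were -1.30 and -1.10, and -0.65 and -0.01 over the members.

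The member called was Aqu2.1.17154_001 in both comparisons, which share the tent-pole and juvenile libraries. It had 0, 1276 and 37.2 CPM in tent-pole-formation replicates 1 to 3 and 655 and 702 CPM in juvenile replicates 1 and 2. Of the 25 mat-formation libraries 7 had a count, 1 of them at 1727 CPM from 2 counts, and of the 7 settlement libraries 1 had a count, at 7.43 CPM. Both juveniles and 1 of the 3 tent-pole individuals were high, and the groups overlapped. The log2 fold change was 3.63 (SE 0.87, edgeR adjusted p = 0.0408) against mat-formation and 7.09 (SE 1.49, edgeR adjusted p = 0.0186) against settlement.

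These calls rested on few libraries. Without tent-pole-formation replicate 2 the log2 fold change of Aqu2.1.17154_001 was 1.23 against mat-formation (edgeR adjusted p = 0.619) and 4.65 against settlement (edgeR adjusted p = 0.118). The call against mat-formation was also lost without juvenile replicate 1 (edgeR adjusted p = 0.336) or juvenile replicate 2 (edgeR adjusted p = 0.0772). With DESeq2's size factors in edgeR the adjusted p was 0.157 against mat-formation and 0.0537 against settlement.

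Some members had neighbouring identifiers. Sorted by number, 6 pairs of members had consecutive numbers and 11 pairs lay within 10 numbers of each other, with a median distance of 206 between one member and the next. Of the 6 consecutive pairs 5 had the same highest peak stage, and of the 11 pairs 6 did. With 72 of the 120 members highest in juveniles, many pairs of any kind would share a stage. These counts were not compared with other pairs or with all gene models. Aqu2.1.17154_001 with Aqu2.1.17155_001, and Aqu2.1.35216_001 with Aqu2.1.35217_001, are among them. Whether the numbers follow the order of genes in the genome is not given in the sources used here.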

How the data were processed

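Single individuals were sequenced by CEL-seq from polyadenylated RNA, per the labels' protocols. CASAVA 1.8, Bowtie2 2.1.0 and HTSeq 0.5.4p3 are named in the submitters' processing notes. The sources used here do not give settings, genome build, strand or whether molecular identifiers were used. In the deposited table, values are whole-number counts per gene model and library, with no normalization. It ends within a line, so that only a part was at hand, with 36868 complete gene models. The reference table of gene names matched 0 identifiers, so no names, marker lists or sequences are given.

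CPM was computed on library totals and stage means on log2(CPM + 1). Members and lists were chosen with earlier results of these data known. Tests used edgeR 4.0.16 in R 4.3.3 (quasi-likelihood, two-sided, TMM; gene models kept by filterByExpr at 10 counts and 15 in total) in a fit of the 9 peak-stage libraries numbered 101 to 124 and another of the 37 unused libraries. A call is a Benjamini-Hochberg adjusted p below 0.05. The test was checked on simulated counts, with changes planted in gene models drawn from all those tested. Recovery was not measured for the members alone. For juvenile against chamber-formation it recovered 0%, 40%, 54% and 88% of changes of 2, 4, 8 and 16 fold. For tent-pole-formation and juvenile against mat-formation in the unused libraries it recovered 0%, 10%, 32% and 54%. Changes of up to 4 fold were thus mostly missed. DESeq2 1.42.0 was an alternative. Descriptions used pandas 2.3.3, numpy 2.4.6 and scipy 1.17.1 under Python 3.11.15. Replicates are numbered by embryo number, and their numbers pair nothing. Named gene models are the 2 members with the largest margin, the 2 most abundant, ranks 120 and 121, and per comparison up to 2 called members each of the highest and lowest fold change with at least 50 CPM in the higher stage; others are said to be chosen after their values were seen.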

Additional observations from a re-analysis of the deposited data

Results flagged for a closer look

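Among 19 groups of 4 to 10 libraries examined for a library far from the rest, 8 held one. A nominal rate of about 1 in 20 groups assumes independent groups. These groups share libraries and members, so nothing is read from the count. In 5 it was the summed CPM of the members that stood out in 1 high library. At cloud, replicate 6 had 2598 CPM and the next library 1206 CPM. At late spot, replicate 5 had 2754 CPM, with 1440 CPM next. At ring, replicate 2 had 2289.7 CPM, with 1010.0 CPM next. At late ring, replicate 5 had 2408 CPM, with 1362 CPM next. At settlement within numbers 1 to 100, replicate 1 had 9357 CPM, with 4533 CPM next. Aqu2.1.01056_001 led the members in 4 of these libraries and took 34.5%, 56.2%, 35.6% and 41.4% of the members' sum at cloud, late spot, ring and settlement. Aqu2.1.32637_001, 1 of the 5 most abundant members and chosen after its values were seen, took 41.2% at late ring. Without the 5 most abundant members the high libraries at cloud, late ring and settlement lay within the range of their stage, at 285, 357 and 2051 CPM. The one at late spot had 398 CPM, against 276 to 395 CPM in the other 6, and the one at ring 533 CPM, against 179 to 383 CPM.

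At mat-formation within numbers 101 to 124, single gene models stood far higher in 1 of 9 libraries each. The highest library had 41.3 CPM of Aqu2.1.14546_001 and the next 5.49 CPM. For Aqu2.1.29922_001 these were 31.5 and 12.6 CPM. For Aqu2.1.13951_001, the gene model just outside the set, they were 4.90 and 2.32 CPM.

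The individual without a stage entered no comparison. Its library of 23082 counts held 125 counts of members, a sum of 5415 CPM (95% Wilson interval 4547 to 6448 CPM, counting error only). That is above all embryos and larvae and within the range of the unused libraries from settlement onwards.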

How the results depend on the processing

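The members themselves depended on the setting. Of the 120, 108 were kept with TMM-scaled CPM, 79 with log2(CPM + 10), 74 with stage medians, 50 with all labelled libraries in every stage and 13 with adults left out of the other stages. Thinning every library to 100000 counts, added after the values were seen, kept 48. Leaving out 1 library of the peak stages or 1 adult kept 83 to 111. Without a filter on low counts edgeR called 52 members among the 3 stages, 33 in juvenile against chamber-formation, 41 in juvenile against tent-pole-formation and 15 in tent-pole-formation against chamber-formation, with 4.72%, 3.06%, 3.51% and 0.838% of all gene models. DESeq2 called 30, 21, 24 and 2, with 5.43%, 4.69%, 5.08% and 0.147% of all. All 24 libraries numbered 101 to 124 in the fit gave 4 calls each in the first 3 of these (1.76%, 1.56% and 0.859% of all), and all libraries of the 3 stages gave 7, 2 and 4 (1.15%, 0.139% and 0.473%). Leaving out 1 library gave 5 to 11, 4 to 14, 4 to 10 and 0 to 0 calls. Over all 9709 to 9845 gene models tested, 60 to 258, 40 to 313, 22 to 175 and 0 to 3 were called. In the unused libraries DESeq2 called 0 of 12 members against mat-formation (2 of 2425 gene models) and 0 of 8 against settlement (63 of 1364). DESeq2's size factors in edgeR called 0 of 14 members in both comparisons, with 2 and 0 of 2468 gene models. No filter called 0 of 111 members and 0 of 27816 gene models against settlement. Against mat-formation no filter called 1 member, Aqu2.1.08892_001, named here after its values were seen, and not Aqu2.1.17154_001 (edgeR adjusted p = 0.342). Of all 27816 gene models 7 were called there. Leaving out 1 tent-pole library gave 0 to 1 members in both, with 1 to 3 of all gene models called against mat-formation and 0 to 1 against settlement. The cause of these shifts was not tested. Over 181 alternatives for the named gene models, 146 kept their direction and call, 35 lost the call and 0 turned.

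The labels give the stages no shared replicate numbers, so that no pairing of individuals is stated. The numbers 101 to 124 hold 3 runs of 8, each with 1 individual of every peak stage. The stages follow in the same order from settlement to adult in each run. Whether the runs are batches is not stated in the labels. With the run as a replicate block, added after the values were seen, edgeR called 10, 7, 11 and 0 members in the order above. Of all 9115 gene models tested it called 212, 209, 194 and 0. No call of a named gene model was lost. Same-run libraries had a median correlation of deviations from their stage means of 0.0621 (9 pairs, -0.0358 to 0.124), against -0.0433 between runs and stages. Deviations within a stage sum to 0, which ties these values together, so the second is no independent baseline. Depth limits single members most: in the 5 shallow tent-pole and juvenile libraries 3 counts were worth 78.6 to 186 CPM.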
